A study of Mus musculus with 6 samples.

Results

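Gene expression was measured for 9 heat shock chaperones in lung fibroblasts (FBs) and alveolar organoids of the mouse. The genes were chosen by symbol: Hspa1a, Hspa1b, Dnajb1, Hsph1, Hspb1, Hspa8, Hsp90aa1, Hspd1 and Hspe1. All 9 were found among the 20490 symbols that the 6 count tables have in common. Each of the 6 conditions was measured in 1 droplet library of cells pooled from 3 mice. All mice that gave FBs carried GFP under the control of the Pdgfra locus, and the authors' methods describe them as adult males. In the single-dose experiment, mice received PBS or bleomycin, a DNA-damaging drug used to cause lung fibrosis, by oropharyngeal aspiration, and GFP+ cells were sorted from digested lungs 14 days later. For this dose the labels disagree, with 2 U/kg in the treatment protocol and 4 U/kg among the sample characteristics. In the repetitive experiment, mice received 3 weekly instillations of PBS or of bleomycin, the bleomycin doses being 1 U/kg for the first and the second and 0.5 U/kg for the last, and the lungs were taken 14 days after the last. Organoids were grown for 2 weeks from tomato+ alveolar epithelial type 2 cells (AEC2s) of tamoxifen-treated SpcCreER donors, with GFP+ FBs of PBS-exposed (normal) or bleomycin-exposed (fibrogenic, 2 U/kg) mice. Tomato marks cells in which Spc, the surfactant protein C gene of AEC2s, was active at the time of tamoxifen, and GFP marks every cell with an active Pdgfra locus, so that both labels are wider than a single FB or epithelial state.

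Heat shock chaperones bind unfolded proteins, keep them from aggregating and help them to refold. Some are made in every cell at all times, while others are kept low and are switched on when heat shock factor 1 (HSF1) binds heat shock elements in their promoters. In cell suspensions, the inducible members are also known to rise during enzymatic digestion, together with immediate early genes such as Fos, Jun and Atf3.

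The heat shock element is built from inverted repeats of the unit GAA. Its pairs, TTCNNGAA or GAANNTTC read on both strands, were searched in RefSeq upstream windows of 250 bases (GRCm38.p6). Hsp90aa1 and Hspa8 had no window. The other 7 members had 10 windows, of which 7 held a pair, and 12.8% of all 32851 windows did, 7.17% with TTCNNGAA and 6.69% with GAANNTTC. Windows of a gene with several starts overlap or lie close by, and Hspe1 and Hspd1 have 1 element in common. Neither window of Dnajb1 and only 1 of those of Hspd1 held a pair. A chain of 3 units, in which a pair of one kind overlaps a pair of the other by 1 unit, stood in the windows of Hspe1 and Hspd1, and 0.466% of all windows held one. The windows before Hspa1a (chr17:34972157-34972406, minus strand) and Hspa1b (chr17:34959239-34959488, minus strand) are shown because these genes lie 10120 bases apart. Over all FBs, intervals of their ratios below did not overlap in the repetitive experiment but did in the single-dose one. These windows were identical at 247 of 250 positions. The window before Hspb1 (chr5:135887669-135887918, plus strand) is shown because this gene differed most between cell types. The last sequence is the element in windows of both Hspe1 and Hspd1 (chr1:55088059-55088076, plus strand), genes that are read in opposite directions and overlap as annotated. It starts 89 bases before the Hspe1 start and lies inside Hspd1, where it overlaps 1 annotated exon. Capitals mark the units of each pair and, in the windows of 250 bases, the bases between them.
Hspa1a: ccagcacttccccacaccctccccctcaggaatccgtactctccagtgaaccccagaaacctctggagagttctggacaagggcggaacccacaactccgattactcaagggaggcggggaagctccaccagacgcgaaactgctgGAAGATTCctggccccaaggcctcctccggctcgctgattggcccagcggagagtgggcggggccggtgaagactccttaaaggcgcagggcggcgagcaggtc
Hspa1b: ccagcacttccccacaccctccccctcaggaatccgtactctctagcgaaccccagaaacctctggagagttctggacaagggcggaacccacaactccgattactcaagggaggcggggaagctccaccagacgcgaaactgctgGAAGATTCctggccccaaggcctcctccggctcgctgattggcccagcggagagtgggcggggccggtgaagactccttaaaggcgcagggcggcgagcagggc
Hspb1: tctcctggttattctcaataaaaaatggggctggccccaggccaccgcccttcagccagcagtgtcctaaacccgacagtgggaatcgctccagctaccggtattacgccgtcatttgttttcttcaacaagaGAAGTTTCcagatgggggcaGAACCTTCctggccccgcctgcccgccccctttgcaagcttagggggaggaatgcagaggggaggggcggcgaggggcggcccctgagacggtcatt
Hspe1 and Hspd1: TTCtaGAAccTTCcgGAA

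The libraries held 7201081 to 238618743 unique molecular identifiers (UMIs) over 1015 to 10737 barcodes. Median UMIs per barcode ranged from 2478 in the repetitive bleomycin library, where 43.7% of barcodes had fewer than 2000 UMIs, to 36841 in the normal organoid library. A barcode was gated as an FB when at least 3 FB markers and fewer than 3 markers of any other cell type had a UMI. This gave 711 to 8492 FBs per library, and all 13 FB markers were found in each. Summed FB markers reached 11241 to 23839 UMIs per 1000000 UMIs of the group (CPM), against 136 to 228 CPM for 9 endothelial markers in the gated FBs of the PBS libraries and 1.20 to 3.79 CPM for 9 epithelial markers. Any 2 libraries had at most 30 barcode sequences in common. All levels below are UMIs of a gene summed over a group and divided by the group's total, in CPM, and ranges in brackets are exact 95% intervals, which cover counting error alone. No condition had a second library, so the spread among mice could not be measured and conditions were compared without a p-value.

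The inducible HSP70 genes had the widest range among libraries. Hspa1a, an HSP70 made in response to unfolded protein, stood in gated FBs at 224 CPM after single-dose PBS, 50.0 CPM after single-dose bleomycin, 223 CPM after repetitive PBS, 215 CPM after repetitive bleomycin, 5.28 CPM in normal organoids and 4.92 CPM in fibrogenic organoids. Hspa1b, whose protein is nearly the same, stood at 31.0, 7.58, 64.8, 100.3, 3.58 and 5.43 CPM in the same order. Freshly sorted FBs of every library thus had more Hspa1a than organoid FBs. For Hspa1b this held in 3 of the 4 sorted libraries, while after single-dose bleomycin its interval (5.81 to 9.71 CPM) overlapped that of fibrogenic organoid FBs (4.94 to 5.96 CPM). Lungs and organoids were dissociated with different enzymes, and the libraries also differ in chemistry and depth. The part of these in the gap was not tested. Dnajb1, an HSP40 that delivers substrates to HSP70 and triggers its ATPase, had 106, 65.1, 118, 79.0, 27.4 and 28.0 CPM. Hsph1, an HSP110 that exchanges the nucleotide of HSP70, had 13.8, 14.5, 34.6, 51.6, 32.1 and 33.6 CPM. The organoid levels of Hsph1 lay inside the range of sorted FBs, and those of Dnajb1 lay below it.

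Hspb1, a small heat shock protein that holds unfolding proteins and acts on actin filaments, stood at 1103 and 1320 CPM after single-dose and repetitive PBS. Its level was 562 and 515 CPM after single-dose and repetitive bleomycin, and 92.8 and 143 CPM in normal and fibrogenic organoid FBs. It was thus lower after bleomycin than after PBS within each experiment, and lowest in organoid FBs. Hspa8, the constitutive HSC70, ranged only from 591 to 993 CPM. Hsp90aa1, the stress-responsive cytosolic HSP90, ranged from 213 to 555 CPM, with both highest levels in organoid FBs. The mitochondrial chaperonin Hspd1 (HSP60) and its lid Hspe1 (HSP10) ranged from 62.2 to 239 CPM and from 163 to 481 CPM, again highest in organoid FBs. Single-dose tables hold other gene rows than the rest, and the part of the annotation in a gap between experiments was not tested, so folds are given below within an experiment only. Of the 90-base windows in the last 500 transcript bases, 79.8% of those of Hspa8, 36.0% of those of Hspe1 and 7.06% of those of Hspb1 also occur in other annotated transcripts, and their counts are uncertain to that extent. The other 6 members had no such window.

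**Figure D1:**
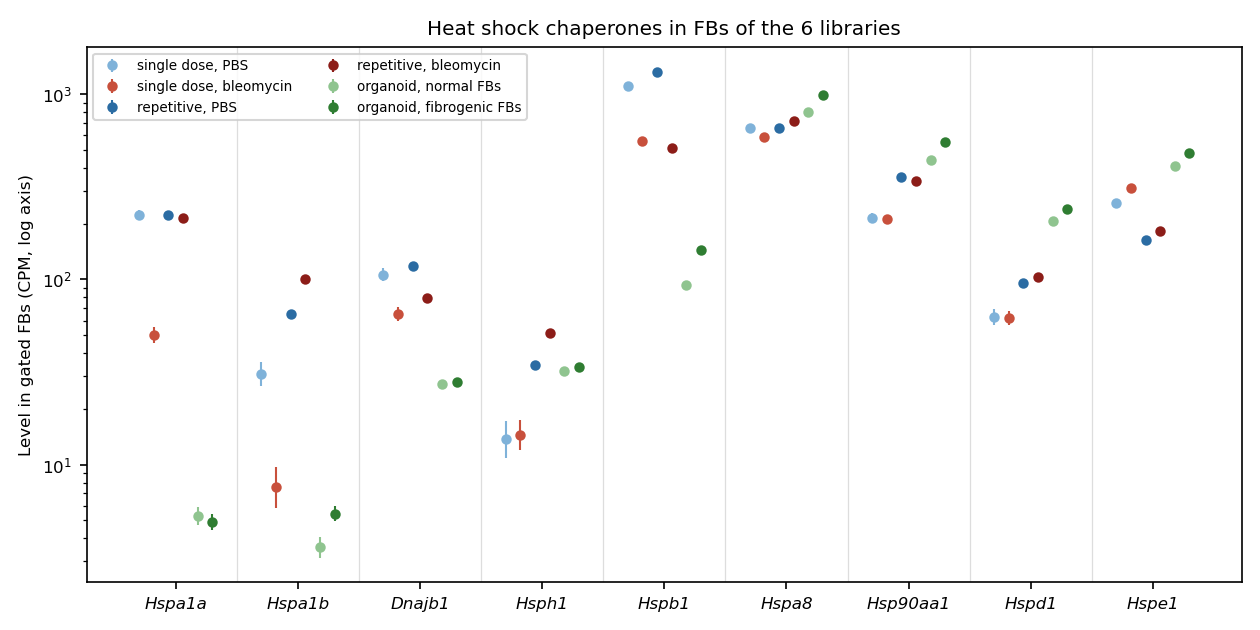
Level in gated FBs (CPM, log axis) for each of the 9 chaperones in each of the 6 libraries, with exact 95% Poisson intervals as vertical lines. Hspa1a is at 215 to 224 CPM in 3 of the 4 sorted libraries, at 50.0 CPM after single-dose bleomycin and near 5 CPM in organoids, while Hspa8 lies between 591 and 993 CPM in all 6.

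In PBS-exposed lungs, FBs with a UMI of Atf3, a stress-induced transcription factor gene, were set against FBs with none. Hspa1a, Hspa1b and Dnajb1 were over 2-fold higher in Atf3-positive FBs in both PBS libraries, and Hspb1 was so after repetitive PBS. Barcodes were also thinned to 2000 UMIs and classed anew by the Atf3 UMIs left. None of the single-dose calls then held (Hspa1a 1.87-fold, Dnajb1 1.75-fold, Hspa1b 0.951-fold), and after repetitive PBS that of Hspa1b did not (1.66-fold). Before thinning, single-dose PBS had 369 Atf3-positive and 492 Atf3-zero FBs, and repetitive PBS had 3380 and 1767. Among all genes with at least 50 UMIs, 1.02% and 2.39% were at least 2-fold higher after 1 CPM was added, against 3 of 9 and 4 of 9 members. No member was 2-fold lower, where the background was 0.247% and 0.523%. The median gene differed by -0.04 and -0.11 on the log2 scale and the median member by 0.10 and 0.31.

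After single-dose PBS, Hspa1a stood at 126 CPM in Atf3-zero and 332 CPM in Atf3-positive FBs, a ratio of 2.64 (2.34 to 2.98). After repetitive PBS it stood at 65.7 and 282 CPM, a ratio of 4.30 (4.03 to 4.59). Atf3-positive FBs were higher in both libraries and no interval of the ratio included 1. Hspa1b went from 18.7 to 44.5 CPM after single-dose PBS, 2.38-fold (1.73 to 3.32), and from 34.6 to 76.2 CPM after repetitive PBS, 2.21-fold (2.01 to 2.42). Dnajb1 went from 64.4 to 152 CPM, 2.36-fold (1.99 to 2.81), and from 33.2 to 151 CPM, 4.54-fold (4.15 to 4.98). Each of these is a level over all FBs of a class, without thinning, and not a measure of whether single barcodes held the 3 messages together. Hspb1 differed between the experiments. It had 1037 CPM in Atf3-zero and 1176 CPM in Atf3-positive FBs after single-dose PBS (1.13-fold, 1.08 to 1.19), but 621 and 1586 CPM after repetitive PBS (2.55-fold, 2.5 to 2.61). The difference between the experiments was not tested.

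Hspa8, Hsp90aa1 and the mitochondrial members differed little by Atf3. Hspa8 was 1.02-fold (0.953 to 1.08) and 1.13-fold (1.11 to 1.16) of its level in Atf3-zero FBs, and Hsp90aa1 was 0.996-fold (0.890 to 1.11) and 1.11-fold (1.07 to 1.15). Hspd1 was 1.07-fold (0.869 to 1.32) and 1.03-fold (0.967 to 1.09). Hspe1 was 1.01-fold (0.915 to 1.12) after single-dose PBS and 0.903-fold (0.864 to 0.945) after repetitive PBS. Hsph1, though an HSP70 partner, was 0.902-fold (0.564 to 1.43) and 1.24-fold (1.12 to 1.39). None of these intervals, which are without thinning, reaches 2-fold in either direction.

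**Figure D2:**
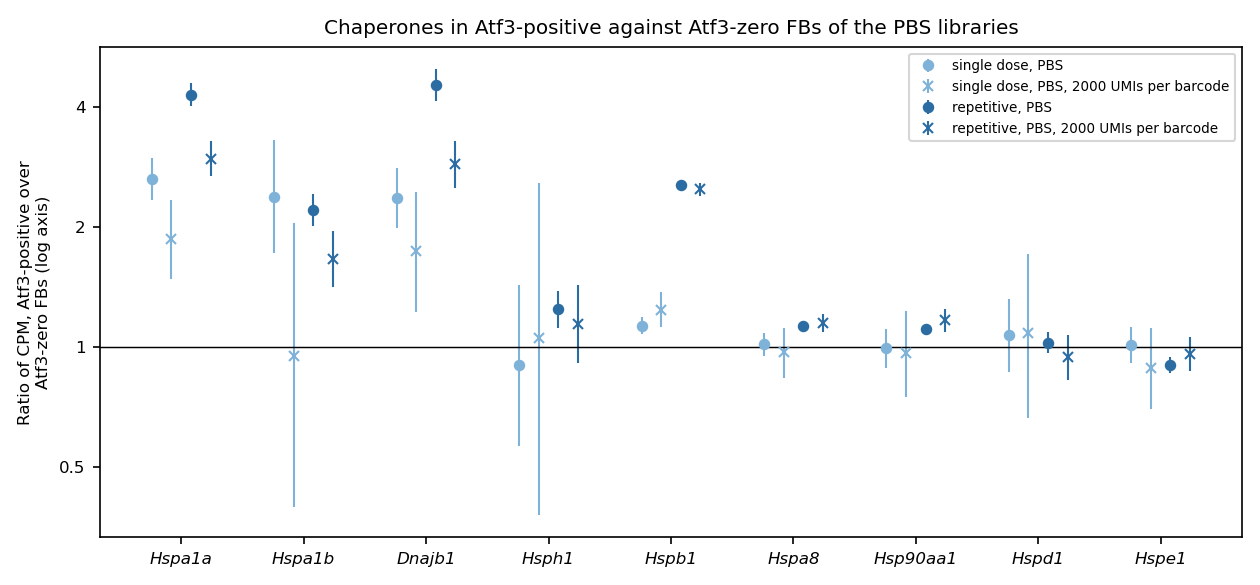
Ratio of CPM in Atf3-positive over Atf3-zero FBs (log axis) for each chaperone in both PBS libraries, as counted (circles) and after thinning to 2000 UMIs per barcode (crosses), with exact 95% intervals. As counted, Hspa1a, Hspa1b and Dnajb1 lie above 2 in both libraries, but after thinning all 3 lie below 2 in the single-dose library. As counted, Hspb1 lies at 1.13 after single-dose and 2.55 after repetitive PBS, and Hspa8, Hsp90aa1, Hspd1 and Hspe1 near 1.

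Atf3-positive barcodes were deeper, with medians of 7552 against 6261.5 UMIs after single-dose PBS and 11441 against 8735 UMIs after repetitive PBS. Median mitochondrial shares were 2.48% against 2.45%, and 2.80% against 3.19%. Thinning was done before the split on Atf3, an analysis added after the first values were seen. FBs that lost all Atf3 UMIs by thinning were thus counted as Atf3-zero. Of FBs with at least 2000 UMIs, 358 were Atf3-positive before and 196 after thinning in the single-dose PBS library. In the repetitive PBS library these numbers were 3328 and 2443. The part of this change of class in the thinned ratios was not tested. After repetitive PBS and thinning, Hspa1a was 2.97-fold (2.69 to 3.28), Dnajb1 2.87-fold (2.51 to 3.29), Hspb1 2.49-fold (2.40 to 2.59) and Hspa1b 1.66-fold (1.41 to 1.96). After single-dose PBS, Hspa1a was 1.87-fold (1.49 to 2.35) and Dnajb1 1.75-fold (1.23 to 2.46). All 6 intervals stayed above 1, but in the single-dose library no member reached 2-fold. Hspa1b had only 30 and 9 UMIs there and gave 0.951-fold (0.397 to 2.05), so no difference was detectable for it at that depth. Within LipoFB-like FBs, a subset described below, the ratios without thinning were 2.80 (2.43 to 3.25) and 4.30 for Hspa1a and 1.28 (1.21 to 1.34) and 2.79 for Hspb1 after single-dose and repetitive PBS. Within MatrixFB-like FBs of the repetitive PBS library they were 4.09 (3.46 to 4.87) and 2.24 (1.98 to 2.55).

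Levels followed the number of Atf3 UMIs only in part. After repetitive PBS, Hspa1a had 65.7 CPM in FBs with no Atf3 UMI, 136 CPM with 1, 226 CPM with 2 to 5 and 322 CPM with 6 or more. Hspb1 had 621, 763, 1107 and 1853 CPM in the same classes, and Dnajb1 had 33.2, 58.8, 112.5 and 176.5 CPM. Without thinning, all 3 were higher in each higher class, but the classes also rose in depth, with medians of 8735, 9942, 10700 and 12006 UMIs. After thinning to 2000 UMIs, Hspa1a had 104, 242, 322 and 383 CPM and Hspb1 786, 1452, 2031 and 2573 CPM, while Dnajb1, at 58.1, 132, 182 and 181 CPM, was level in the top 2 classes. After single-dose PBS and without thinning, Hspa1a had 126, 208, 395 and 384 CPM, Dnajb1 had 64.4, 83.8, 189 and 178 CPM, and Hspb1 had 1037, 907, 1327 and 1268 CPM, so that the top 2 classes were level or reversed. With 1 Atf3 UMI, 22 of the 74 UMIs of Dnajb1 came from 1 barcode. The level without it was 59.4 CPM (44.4 to 77.9), an interval that included the 64.4 CPM of Atf3-zero FBs. Thinning left 5 barcodes in the top class of this library. In the classes of 0, 1 and 2 to 5 UMIs, thinned Hspa1a had 169, 307 and 282 CPM. Thinned Dnajb1 had 78.9, 142 and 112 CPM there, and Hspb1 1100, 1175 and 1582 CPM. Without thinning, Hspa8 stayed between 636 and 718 CPM in this library and between 602 and 690 CPM in the other.

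**Figure D3:**
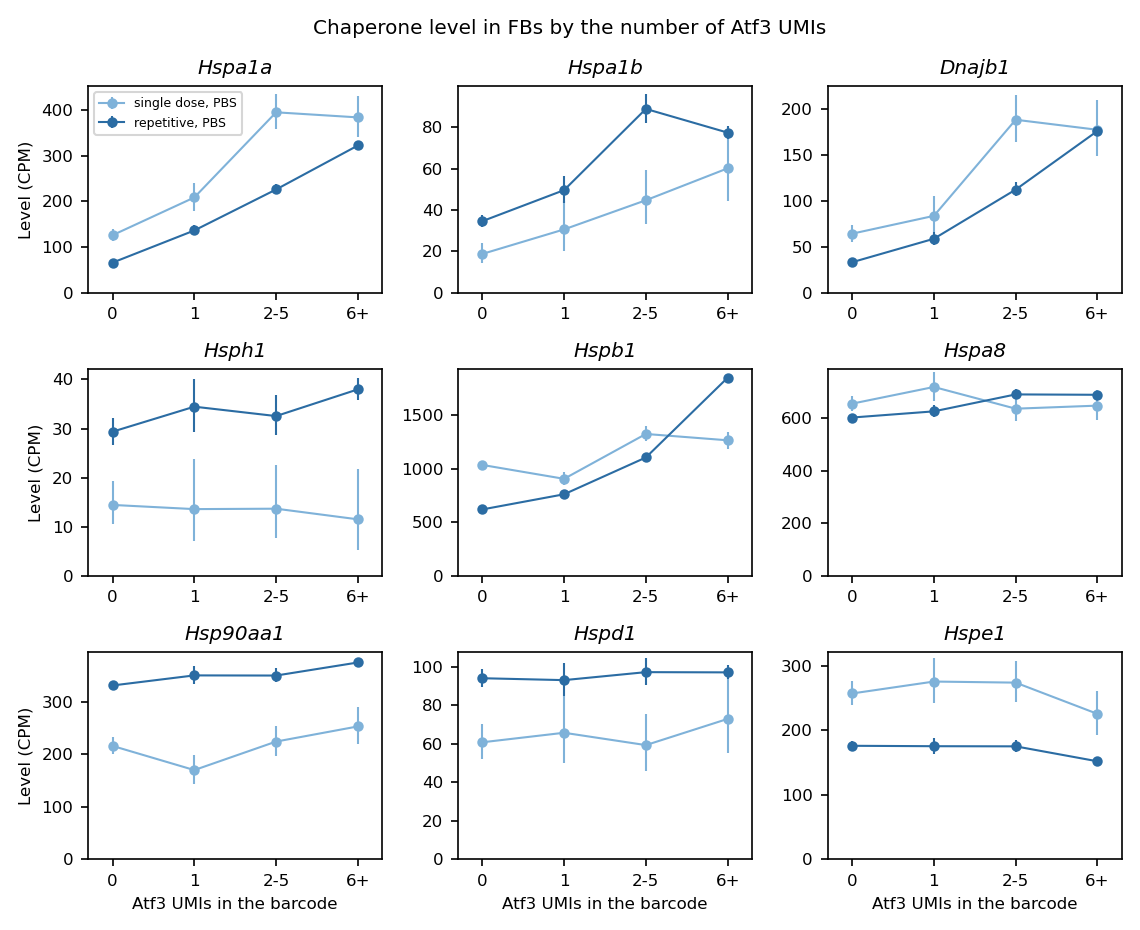
Level (CPM) of the chaperones in FBs of the 2 PBS libraries by the number of Atf3 UMIs in the barcode (0, 1, 2 to 5, 6 or more), with exact 95% Poisson intervals. After repetitive PBS, Hspa1a goes from 65.7 to 322 CPM and Hspb1 from 621 to 1853 CPM across the classes, while Hspa8 lies between 602 and 690 CPM.

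The same split in bleomycin libraries used FBs that the PBS comparison did not. Hspa1a was 2.07-fold (1.69 to 2.53) after single-dose bleomycin, with 163 Atf3-positive and 548 Atf3-zero FBs, and 2.47-fold after repetitive bleomycin, with 2407 and 6085. Dnajb1 was 2.11-fold (1.76 to 2.51) and 2.5-fold, and Hspb1 was 1.34-fold and 1.88-fold. Hspa1b was 1.37-fold (0.752 to 2.40) and 1.71-fold. All 4 ratios were above 1 in both libraries, and only the interval of Hspa1b after single-dose bleomycin included 1. Atf3-positive barcodes were deeper here too, with medians of 11594 against 10739.5 UMIs after single-dose and 3973 against 2008 UMIs after repetitive bleomycin. After thinning to 2000 UMIs, repetitive bleomycin gave 2.06-fold (1.87 to 2.26) for Hspa1a, 2.22-fold (1.91 to 2.57) for Dnajb1, 1.87-fold (1.75 to 1.99) for Hspb1 and 1.39-fold (1.20 to 1.61) for Hspa1b. After single-dose bleomycin, 162 Atf3-positive FBs had at least 2000 UMIs, and only 60 of them kept an Atf3 UMI after thinning. This library gave 2.46-fold (1.15 to 4.83) for Hspa1a and 1.49-fold (1.18 to 1.85) for Hspb1. Dnajb1 at 1.13-fold (0.499 to 2.25) and Hspa1b, with 8 and 1 UMIs, gave no detectable difference. The Atf3-positive barcode with the largest count, taken for each gene apart, held 3 of 11 UMIs of Hspa1a and 15 of 93 of Hspb1. Without it, Hspa1a, left with 8 UMIs, was 1.82-fold (0.743 to 3.9) and Hspb1 1.27-fold (0.990 to 1.61), so that both intervals included 1. Without thinning, of the listed immediate early genes other than Atf3, which defines the split, 19 of 19 were higher in Atf3-positive FBs after single-dose PBS, 15 of them at least 2-fold, and 18 of 18 after repetitive PBS, all at least 2-fold. Of all genes tested there, 44.6% and 34.3% were higher, and 1.02% and 2.39% at least 2-fold. The listed genes had medians of 1.43 and 2.62 on the log2 scale. After thinning to 2000 UMIs the medians were 1.19 and 1.68, and 14 of 19 and 18 of 18 were at least 2-fold higher. Without thinning, Fos was 2.76-fold and 7.26-fold, Jun 2.47-fold and 6.70-fold, and Egr1 2.81-fold and 6.08-fold. These genes are known to rise during cell dissociation. The part of the immediate early genes in the result was not tested.

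After bleomycin, the inducible HSP70 genes were at least 2-fold lower than after PBS in the single-dose experiment, and neither was so in the repetitive one. After a single dose, Hspa1a was 0.223-fold (0.199 to 0.250) and Hspa1b 0.244-fold (0.180 to 0.328) of PBS. These 2 of 9 members were at least 2-fold lower, against 3.38% of all genes tested, and none was 2-fold higher, against 6.93%. After repetitive dosing, Hspa1a was 0.965-fold (0.940 to 0.990) and Hspa1b 1.55-fold (1.48 to 1.62) of PBS. Only Hspb1 was at least 2-fold lower, at 0.390-fold (0.385 to 0.396), where 1.89% of genes were. No member was 2-fold higher, where 6.67% of genes were. Over barcodes of at least 2000 UMIs, Hspa1a was 0.963-fold, Hspa1b 1.54-fold and Hspb1 0.393-fold in this experiment. The median gene differed by 0.07 after a single dose and by 0.10 after repetitive dosing on the log2 scale, and the median member by -0.16 and 0.10.

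Hspb1 was lower in both experiments, at 0.509-fold (0.490 to 0.529) of PBS after a single dose. Dnajb1 was also lower in both, at 0.614-fold (0.546 to 0.691) and 0.668-fold (0.642 to 0.694). Hsph1 was 1.06-fold (0.788 to 1.42) after a single dose, which does not separate it from PBS, and 1.49-fold (1.41 to 1.58) after repetitive dosing. Hspa8 was 0.896-fold (0.859 to 0.935) and 1.09-fold (1.08 to 1.11). Hspe1 was higher in both, at 1.21-fold (1.13 to 1.29) and 1.11-fold (1.08 to 1.14), whereas Hspd1 was 0.990-fold (0.863 to 1.14) and 1.07-fold. Hsp90aa1 was 0.989-fold (0.919 to 1.06) and 0.954-fold.

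Immediate early genes were lower after bleomycin in both experiments. Of those listed, 19 of 20 were lower after a single dose, 16 at least 2-fold, and 18 of 19 after repetitive dosing, 9 at least 2-fold. Of all genes tested, 55.4% and 62.5% were higher, and 3.38% and 1.89% were at least 2-fold lower. Atf3 was 0.186-fold and 0.264-fold of PBS, Fos 0.247-fold and 0.555-fold, and Egr1 0.496-fold and 0.471-fold. Comparisons were therefore repeated within Atf3-zero and Atf3-positive FBs after thinning to 2000 UMIs. So thinned, most of the listed immediate early genes other than Atf3 stayed lower inside these classes. After a single dose 17 of 19 were lower in each class, with medians of -0.69 and -0.92 on the log2 scale. After repetitive dosing 15 of 18 were lower in each, with medians of -0.42 and -0.46. Without thinning, the direction in Atf3-zero FBs after repetitive dosing was the opposite, with 12 of 18 higher and a median of 0.22. In Atf3-positive FBs 16 of 18 were then lower, with a median of -0.45. After a single dose 17 of 19 and 18 of 19 were lower without thinning. The part of these genes in the ratios was not tested. In Atf3-zero FBs, Hspa1a was 0.220-fold (0.156 to 0.304) of PBS after a single dose and 1.60-fold (1.45 to 1.78) after repetitive dosing. In Atf3-positive FBs it was 0.290-fold (0.141 to 0.537) and 1.11-fold. The single-dose ratio in Atf3-positive FBs had a wide interval from 60 bleomycin barcodes, while in the repetitive experiment the ratios of both classes were above 1. Pooled over the classes and thinned in the same way, Hspa1a was 0.206-fold (0.152 to 0.273) after a single dose and 0.998-fold (0.937 to 1.06) after repetitive dosing. Hspb1 was 0.474-fold and 0.567-fold in Atf3-zero and Atf3-positive FBs after a single dose and 0.513-fold and 0.384-fold after repetitive dosing, lower in all 4.

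FB subsets changed in share between the libraries, so the comparison was also made within them. LipoFB-like barcodes, which express lipid-handling and alveolar FB genes such as Plin2 and Tcf21, numbered 665, 139, 3481 and 966 in the single-dose PBS, single-dose bleomycin, repetitive PBS and repetitive bleomycin libraries. MatrixFB-like barcodes, which express adventitial genes such as Pi16 and Dcn, numbered 101, 218, 837 and 3257. The subsets are cut from a continuous marker sum, and 87 to 1066 barcodes per library lay within 20% of the LipoFB cut and 51 to 1193 within 20% of the MatrixFB cut. FBs that met no subset cut or more than 1 numbered 93, 295, 825 and 4049 in the same order of libraries. Myofibroblast-like FBs numbered 2, 40, 3 and 189. Neither these nor cycling FBs were compared, so the ratios within subsets leave out many FBs, above all after bleomycin. Hspa1a in LipoFB-like FBs was at 192 CPM after single-dose PBS and 19.0 CPM after bleomycin, 0.0991-fold (0.0649 to 0.145), and in MatrixFB-like FBs at 369 and 81.7 CPM, 0.222-fold (0.180 to 0.272). Hspa1b in LipoFB-like FBs had 101 UMIs after PBS and 1 after bleomycin, a ratio of 0.0310 (0.000778 to 0.177). Both HSP70 genes were thus lower after a single dose in both subsets. After repetitive dosing, Hspa1a was 0.999-fold in LipoFB-like and 0.716-fold in MatrixFB-like FBs, and Hspa1b 1.49-fold and 0.943-fold.

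Hspb1 differed more between the subsets than between exposures. After single-dose PBS it stood at 1283 CPM in LipoFB-like and 286 CPM in MatrixFB-like FBs, a ratio of 0.223 (0.191 to 0.259). After repetitive PBS it stood at 1609 and 352 CPM, a ratio of 0.219 (0.210 to 0.228). The matrix subset was lower in all 4 sorted libraries, at 0.276-fold after single-dose and 0.374-fold after repetitive bleomycin. Over all genes, 10.5% and 6.77% were at least 2-fold lower in the matrix subset of the PBS libraries, and 6.63% and 5.87% in that of the bleomycin libraries. Within LipoFB-like FBs, Hspb1 after bleomycin was 0.693-fold (0.651 to 0.736) of PBS after a single dose and 0.467-fold (0.455 to 0.480) after repetitive dosing. Within MatrixFB-like FBs it was 0.857-fold (0.720 to 1.02) and 0.797-fold (0.759 to 0.837). In both experiments the ratios of both subsets were nearer to 1 than those of all FBs, which were 0.509 and 0.390.

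The HSP70 genes had the opposite bias, with more in MatrixFB-like FBs. Hspa1a was 1.92-fold (1.65 to 2.22) and 1.59-fold of the LipoFB-like level after single-dose and repetitive PBS. Hspa1b was 3.29-fold (2.28 to 4.69) and 2.81-fold (2.60 to 3.03), and Dnajb1 2.20-fold (1.79 to 2.68) and 1.36-fold. In these PBS libraries, 5.46% and 7.89% of genes were at least 2-fold higher in the matrix subset, and 7.46% and 8.58% in the bleomycin libraries. After single-dose bleomycin, Hspa1a was 4.30-fold (2.84 to 6.72) higher in MatrixFB-like FBs, but after repetitive bleomycin only 1.14-fold. Hspa8 was 1.01-fold after single-dose PBS. Fos and Egr1 were also higher in MatrixFB-like FBs of all 4 sorted libraries, and Atf3 was so in 3 of them. After single-dose PBS, Atf3 was at 532 CPM in MatrixFB-like and 232 CPM in LipoFB-like FBs, Egr1 at 1561 and 790 CPM and Fos at 3428 and 2534 CPM, and 63 of 101 against 251 of 665 barcodes were Atf3-positive. After repetitive PBS, Egr1 was 1.31-fold and Fos 1.32-fold, but Atf3 was 0.962-fold (0.936 to 0.988). After single-dose bleomycin, Atf3 was 6.11-fold (3.99 to 9.76) and Fos 2.25-fold, and after repetitive bleomycin they were 1.52-fold and 1.24-fold. The part of these genes in the subset difference was not tested.

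**Figure D4:**
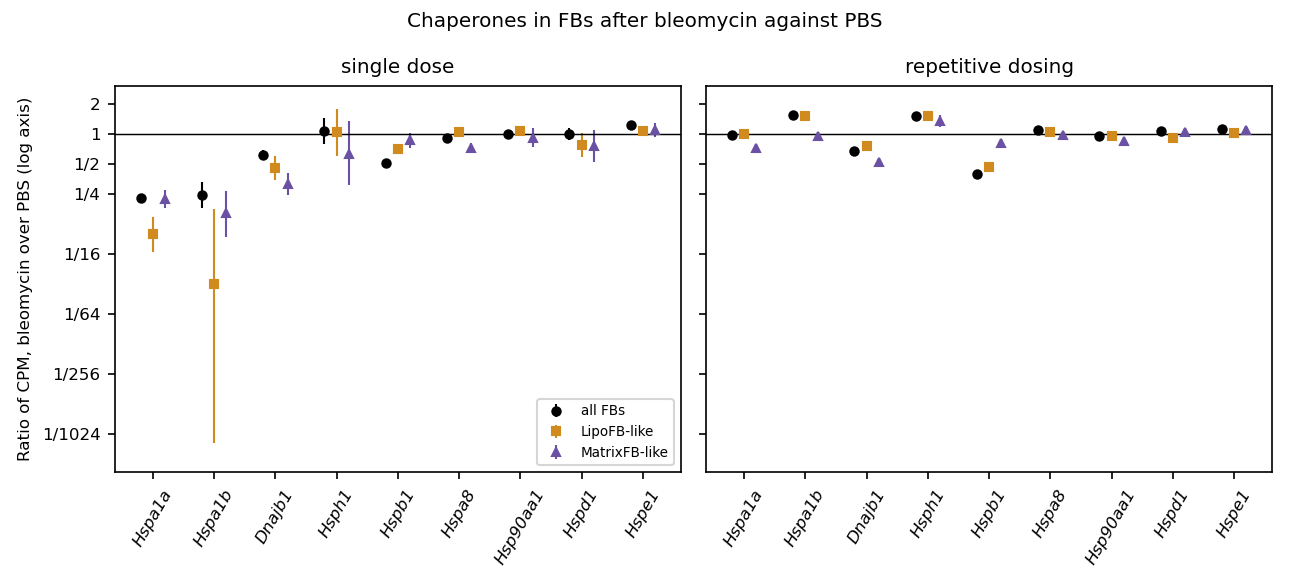
Ratio of CPM after bleomycin over PBS (log axis) for each chaperone in all gated FBs, LipoFB-like FBs and MatrixFB-like FBs, with exact 95% intervals. Hspa1a and Hspa1b lie at 0.244 or lower in every group after a single dose and between 0.716 and 1.55 after repetitive dosing, and Hspb1 lies below 1 in all 6 groups.

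In organoids, members were compared in FBs and epithelium by the origin of the FBs. With the marker gate, 0 of 9 members reached 2-fold in either direction in FBs, where 0.372% of genes were 2-fold higher and 1.02% lower, or in epithelium, where 0.571% were higher and 0.563% lower. That gate leaves out many deep barcodes, which have markers of both types. The part of free RNA or of doublets in this was not tested. Barcodes of at least 20000 UMIs were therefore also split by the ratio of epithelial to FB marker UMIs, a gate set after marker values were seen. It gave 1791 normal and 1865 fibrogenic FBs, and 1536 and 1169 epithelial barcodes. Barcodes with mural or smooth muscle markers, 329 normal and 470 fibrogenic under the marker gate, were not taken out of these deep FBs. They had 211 and 220 CPM of Hspb1, against 92.8 and 143 CPM in marker-gated FBs. Their part in the deep FB levels was not tested.

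In these deep FBs all 9 members were higher in fibrogenic than in normal organoids, where 48.6% of genes were, and 0 of 9 reached 2-fold, where 0.294% of genes were 2-fold higher and 0.726% lower. Hspa1b had 4.83 CPM in normal and 7.36 CPM in fibrogenic FBs, 1.52-fold (1.37 to 1.69). Hspb1 had 126 and 189 CPM, 1.51-fold (1.48 to 1.54), and Hsp90aa1 had 464 and 610 CPM, 1.31-fold (1.30 to 1.33). The difference for Hspb1 was thus opposite in direction to that in sorted FBs. Hspa8 was 1.24-fold, Hspe1 1.17-fold and Hspd1 1.15-fold, while for Hspa1a the ratio of 1.09 (0.981 to 1.20) had an interval that included 1.

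In deep epithelium, 0 of 9 members reached 2-fold, where 0.246% of genes were 2-fold higher and 0.103% lower with fibrogenic FBs. Hspb1 stood at 54.9 CPM with normal and 83.0 CPM with fibrogenic FBs, 1.51-fold (1.45 to 1.58). Hsp90aa1 was 1.22-fold, Hsph1 1.20-fold and Hspa8 1.08-fold. Hspa1a was 0.991-fold (0.857 to 1.15), although the marker gate gave it 1.47-fold (1.13 to 1.89) from 156 and 104 UMIs. Of the latter, 24 came from 1 barcode, and without the top barcode of each library the ratio was 1.15 (0.865 to 1.51). The make-up of deep epithelium also differed. PATS-like barcodes, described below, were 126 of 1536 with normal and 160 of 1169 with fibrogenic FBs. They held 2769 of the 4177 and 3408 of the 4630 UMIs of Hspb1, at 440 and 418 CPM. The part of this make-up in the ratios by FB origin was not tested.

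Within the epithelium, each of the 9 members differed more between PATS-like and AEC2-like barcodes than by FB origin. PATS-like barcodes, named for the pre-alveolar type 1 transitional state and expressing Cldn4, Sfn and Krt19, numbered 126 with normal and 160 with fibrogenic FBs. AEC2-like barcodes, rich in surfactant genes, numbered 966 and 692, and AEC1-like barcodes, with genes of the flat gas-exchange cell, 118 and 94. Cycling barcodes numbered 214 and 110, and 42 and 50 barcodes lay within 20% of the PATS cut. All 9 members were higher in PATS-like than in AEC2-like barcodes in both libraries, where 61.6% and 59.4% of genes were. At least 2-fold higher were 4 of 9 members after 1 CPM was added, Hspb1, Hsp90aa1, Hspa1b and Hsph1, against 17.2% and 14.8% of genes. No member was 2-fold lower, where 12.2% and 12.1% of genes were. The median mitochondrial share was lower in PATS-like than in AEC2-like barcodes, at 3.37% against 5.04% with normal and 3.38% against 5.77% with fibrogenic FBs, and its part in the result was not tested.

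Hspb1 was close to absent in AEC2-like barcodes and high in PATS-like barcodes. With normal FBs it stood at 5.75 CPM in AEC2-like, 109 CPM in AEC1-like and 440 CPM in PATS-like barcodes, so that PATS-like was 76.4-fold (67.4 to 86.9) of AEC2-like. With fibrogenic FBs it stood at 10.1, 82.6 and 418 CPM, a ratio of 41.5 (37.0 to 46.6). Free RNA in the low AEC2-like levels was not measured, so the size of both ratios is uncertain beyond these intervals. In AEC1-like barcodes with normal FBs, 1 barcode held 208 of the 472 UMIs of Hspb1, and the level without it was 63.6 CPM (56.2 to 71.8), below and not above that with fibrogenic FBs. With or without it, AEC1-like barcodes lay between AEC2-like and PATS-like barcodes in both libraries, and PATS-like barcodes exceeded the 126 and 189 CPM of deep organoid FBs. Hsp90aa1 had 281, 565 and 983 CPM with normal FBs and 294, 566 and 1044 CPM with fibrogenic FBs in the same order of states, PATS-like being 3.5-fold (3.40 to 3.61) and 3.55-fold of AEC2-like. Hsph1 was 2.68-fold and 3.06-fold, Hspa1b 2.97-fold and 2.93-fold and Hspa1a 2.10-fold and 1.91-fold. Hspa8, Dnajb1, Hspd1 and Hspe1 were higher by smaller ratios, from 1.60 and 1.66 for Dnajb1 to 1.17 and 1.19 for Hspe1. Hspd1 and Hspe1 were lowest in AEC1-like barcodes, Hspd1 at 73.8 and 86.0 CPM and Hspe1 at 194 and 213 CPM.

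Markers of other types were measured in the same groups. Summed FB markers were at 99.9 CPM in PATS-like and 100.2 CPM in AEC2-like barcodes with normal FBs, and at 129 and 134 CPM with fibrogenic FBs, so FB messages differed little between these groups. Of 7 mesothelial markers the sum was 298 CPM in PATS-like and 2.27 CPM in AEC2-like barcodes with normal FBs, and 428 and 2.39 CPM with fibrogenic FBs; their part in the result was not tested. Atf3 was also higher in PATS-like barcodes, at 359 CPM with normal and 549 CPM with fibrogenic FBs against 139 and 191 CPM in AEC2-like barcodes. Hspa1a stood at 12.5 and 10.5 CPM in PATS-like against 5.96 and 5.52 CPM in AEC2-like barcodes. The part of Atf3 in the result was not tested. Between PATS-like barcodes of both libraries, the ratio of fibrogenic to normal was 0.951 (0.904 to 1.00) for Hspb1 and 1.06 (1.03 to 1.10) for Hsp90aa1. In AEC2-like barcodes Hspb1 had 5.75 CPM with normal and 10.1 CPM with fibrogenic FBs, beside 95.5 and 153 CPM over all barcodes of the same libraries. Free RNA was not measured apart from the barcodes, so these low levels are not read as expression in AEC2-like barcodes, nor their ratio as a difference.

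Other genes of the proteostasis network were taken from 7 lists. Over all genes tested, 55.4% were higher after single-dose and 62.5% after repetitive bleomycin, and 44.6% and 34.3% were higher in Atf3-positive FBs after single-dose and repetitive PBS. ER chaperones, which fold secreted proteins, were higher after bleomycin in FBs for 13 of 14 genes in both experiments, with medians of 0.33 and 0.52 on the log2 scale. Calreticulin (Calr) was 1.72-fold and 1.88-fold, and the collagen chaperone Serpinh1, counted among inducible co-chaperones, was 1.76-fold and 2.06-fold. By Atf3, 4 of 14 and 6 of 14 ER chaperones were higher, with medians of -0.08 and -0.01. Inducible co-chaperones and HSF1 targets were higher after bleomycin for 8 of 18 and 7 of 18 genes, with medians of -0.16 and -0.12, and in Atf3-positive FBs for 9 of 17 and 11 of 18, with medians of 0.03 and 0.11. The cytosolic chaperonin TRiC, which folds actin and tubulin, had 4 of 7 and 7 of 8 subunits higher after bleomycin, with medians of 0.10 and 0.09, and 2 of 7 and 4 of 8 higher by Atf3, with medians of -0.05 and -0.02. In PATS-like against AEC2-like barcodes, 8 of 8 TRiC subunits were higher in both libraries, with medians of 0.93 and 0.95 on the log2 scale beside 0.23 and 0.18 for all genes, while 3 of 14 and 8 of 14 ER chaperones were higher.

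The remaining lists had medians between -0.55 and 0.04 after bleomycin and between -0.16 and 0.04 by Atf3. Constitutive partners of HSC70 and HSP90 were higher after bleomycin for 3 of 12 and 4 of 12 genes and in Atf3-positive FBs for 3 of 12 in both libraries. Mitochondrial chaperones and proteases other than the members were higher for 4 of 9 in both experiments and by Atf3 for 4 of 9 and 3 of 9. Other small heat shock proteins were higher for 3 of 6 in both experiments and by Atf3 for 3 of 5 and 1 of 5. Hspb7, a small heat shock protein of muscle, had 1.89 CPM after single-dose PBS and 6.84 CPM after bleomycin, and 0.448 and 3.98 CPM in the repetitive experiment. Heat shock factors were higher for 1 of 4 in both experiments and by Atf3 for 2 of 4 and 1 of 4.

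Members were also followed across 32 gated groups of the 6 libraries. Groups of 1 library share its depth and annotation, so the following are descriptions. The closest pair was Hspa1a and Hspa1b, with a Pearson correlation of 0.87 on the log scale, followed by Hspa8 and Hsp90aa1 at 0.76, Hspa1a and Dnajb1 at 0.73, and Hsp90aa1 and Hspd1 at 0.71. Hspa1a ran against Hspe1 at -0.66 and against Hspa8 at -0.62. Among the other genes, the patterns over the 32 groups most like the mean of the 9 members were those of Vezf1 at 0.91, Tmcc3 at 0.88, and Tmem65, Peli2 and Map4 at 0.86.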

How the data were processed

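The 6 libraries, 1 per condition, were analysed from the deposited tables of UMI counts per gene and barcode, which the authors made with Cell Ranger 3.0.1 for mm10, per the labels' processing notes, without normalization. Single-dose tables had 30830 and 30828 gene rows and the others 32285. The 9 members and all gene lists were chosen with earlier results of these data known. Barcodes over 0.5% hemoglobin UMIs, or over 3 scaled median absolute deviations above their group's median mitochondrial share, were removed. Doublets were not called, but barcodes with at least 3 markers of more than 1 cell type (5.75% to 27.2%) were left out of the marker gate. The deep organoid gate, on which the AEC1-like, AEC2-like and PATS-like results rest, kept such barcodes. LipoFB-like, MatrixFB-like, myofibroblast-like, AEC1-like and PATS-like barcodes needed 8000 CPM of 8 markers, and AEC2-like barcodes 50000 CPM. Cycling barcodes needed 5 cycling markers in organoid epithelium and 3 in sorted FBs. Named genes were the members, Atf3, Fos, Jun, Egr1 and Dusp1, the 3 highest and 3 lowest listed genes of each comparison, and the 5 genes with the pattern most like that of the members, from which those named in the text were taken.

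UMIs were summed per group. Ratios of CPM have exact conditional binomial intervals, levels exact Poisson intervals, both at 95%. Genes needed 50 UMIs over both groups, and a 2-fold call was made on the log2 ratio after adding 1 CPM. Comparisons needed 50 barcodes a group. The calculation was tested on simulated Poisson counts. These do not hold the clumping of UMIs in single barcodes seen in the data, so the intervals were not tested for it. Python 3.11.15, numpy 2.4.6, scipy 1.17.1, pandas 2.3.3 and matplotlib 3.10.9 were used, with GENCODE M21 transcripts for shared windows and RefSeq for promoters.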

Additional observations from a re-analysis of the deposited data

Results flagged for a closer look

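Hspa1b differed in direction between the experiments. Its log2 ratio of bleomycin over PBS was -1.90 after a single dose and 0.62 after repetitive dosing. Hspa8 did so by less, at -0.16 and 0.13. Each value compares 1 library with 1 other, and the difference between the experiments was not tested. Within Atf3-zero FBs thinned to 2000 UMIs, Hspa1b was 0.268-fold of PBS after a single dose and 1.96-fold (1.69 to 2.28) after repetitive dosing.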

How the results depend on the processing

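The median log2 ratio of the 9 members moved with several choices. After a single dose it was -0.16, and -0.23 with ratios centred on the median gene and -0.076 over all barcodes. After repetitive dosing it was 0.10, and 0.016 with a gate of at least 2 markers and -0.0080 with centring, which changed its sign because the median gene lay at 0.10. In organoid epithelium it was 0.11, and 0.16 with 2 markers and 0.23 over all barcodes. In organoid FBs it was 0.23, and 0.17 with 2 markers, 0.13 as the mean of barcode CPM, 0.20 with 10 CPM added and 0.26 with centring. By Atf3 it was 0.10 after single-dose PBS, ranging from 0.04 to 0.21 over the alternatives, and 0.31 after repetitive PBS, ranging from 0.22 to 0.42. The count of members 2-fold higher in Atf3-positive FBs ran from 0 to 3 after single-dose PBS, being 0 after thinning to 2000 UMIs and 1 between the quartiles of depth, where Hspa1a alone kept the call at 1.33 on the log2 scale. After repetitive PBS the count was 3 or 4, and Hspa1b was the member that lost the call. Members 2-fold lower after a single dose numbered 1 to 3, since 1 more, Hspb1, passed with centring (-1.04) and as the mean of barcode CPM (-1.04), and Hspa1b was not tested at 500 UMIs per gene. In organoid epithelium 2 members, Hspa1a (1.02) and Hspa1b (1.09), were 2-fold higher with a gate of 2 markers, but 24 of 39 Hspa1a UMIs in the fibrogenic library came from 1 barcode, and without the top barcode of each library the ratios were 0.897 (0.472 to 1.61) for Hspa1a and 1.83 (1.06 to 3.06) for Hspa1b. No paired analysis was possible because each condition was measured in 1 library. For the same reason no library could be left out. The deep organoid gate, thinning, leaving out the top barcode and the comparisons within FB subsets were chosen after the data were seen.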
